A study of Caenorhabditis elegans with 8 samples.

Results

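Argonautes are the proteins that hold a small RNA and use it to find complementary transcripts. The small RNA pathways of Caenorhabditis elegans differ in the Argonautes they use. The RNA polymerase II calls at 10 Argonaute genes were examined in early embryos with and without sig-7 RNAi. The genes were chosen by name and found by sequence name, with case ignored, and all 10 are annotated as protein-coding. They are csr-1 (F20D12.1), prg-1 (D2030.6), hrde-1 (C16C10.3), wago-1 (R06C7.1), nrde-3 (R04A9.2), alg-1 (F48F7.1), alg-2 (T07D3.7), ergo-1 (R09A1.1), rde-1 (K08H10.7) and ppw-1 (C18E3.7). Of these, 6 are among the 8922 genes that the deposited table lists as called in at least 1 condition, and 4 are not listed.

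The libraries came from embryos of strain KW2309, spanning the 1-cell to the 350-cell stage, that were fixed with formaldehyde and sonicated. Control embryos had the empty vector L4440, and the other group had RNAi of sig-7, a gene for a nuclear cyclophilin, labelled as loss of sig-7. Each group had 2 ChIP libraries with an antibody to AMA-1, which is the large catalytic subunit of RNA polymerase II, and 2 input libraries. The labels give the strain by name alone, do not describe how deep the knockdown was, and do not say whether replicates were separate cultures.

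Each value is a call per gene and condition, made by the authors from both ChIP replicates together. A call of 1 means that a MACS2 broad peak covered at least 250 bp or 45% of the gene in both replicates, and a 0 means that this held in at most 1 of them. The table lists no gene with 0 in both conditions, so a gene that is not listed was taken as called in neither. A call is not an amount of polymerase. With 1 call per condition no replicate error exists, no test of a difference could be made, and the depth is unknown. A gene called in a single condition may therefore differ by a single replicate that crossed the peak threshold.

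Small RNA pathways of the worm fall into a few classes. MicroRNAs are processed from hairpin transcripts and repress messenger RNAs through ALG-1 and ALG-2. In RNA interference, a primary Argonaute such as RDE-1 or ERGO-1 binds siRNAs cut by Dicer, and RNA-dependent RNA polymerases then copy the target into secondary siRNAs, which are bound by the worm-specific WAGO Argonautes. PRG-1, the PIWI protein, starts a similar relay from piRNAs in the germ line, while CSR-1 binds secondary siRNAs against genes expressed in the germ line. NRDE-3 and HRDE-1 carry siRNAs into the nucleus, where they act on nascent transcripts and on the polymerase that makes them. Much Argonaute messenger RNA and protein is given to the embryo by the mother, and a call reports polymerase on the gene in the embryo, not this maternal supply.

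Of the 10 Argonaute genes, 4 had a call in both conditions, 0 in control only, 2 in sig-7(RNAi) only and 4 in neither. The genes called in both were alg-1, alg-2, nrde-3 and ppw-1. Those with a call in sig-7(RNAi) only were hrde-1 and ergo-1, and those called in neither were csr-1, prg-1, wago-1 and rde-1. The gene table holds 19983 protein-coding genes, and of these 16.8% had a call in both conditions, 6.03% in control only, 7.05% in sig-7(RNAi) only and 70.1% in neither. By condition, 4 of the 10 genes were called in control and 6 in sig-7(RNAi), against 22.8% and 23.9% of protein-coding genes. Over all 46926 genes of the table, which include many short RNA genes, 14.4% were called in control and 13.9% in sig-7(RNAi). The 2 Argonaute genes called in a single condition stand beside 13.1% of protein-coding genes with such a call. These shares describe the list and were not tested. In whole embryos, fewer cells with polymerase on a gene and less polymerase per cell cannot be told apart.

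**Figure D1:**
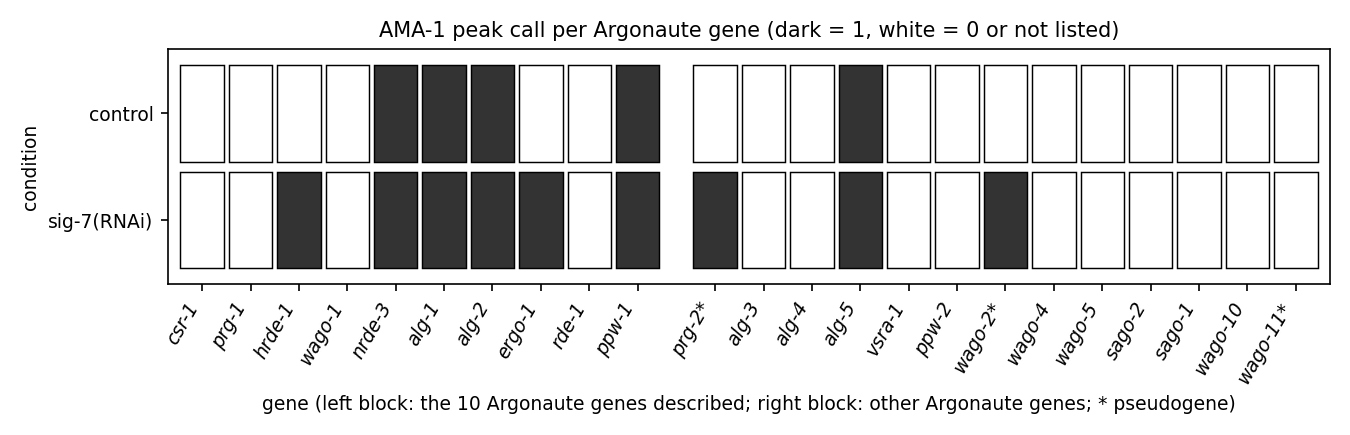
AMA-1 peak call (dark, 1; white, 0 or not listed) in control and sig-7(RNAi) embryos (rows) for the 10 Argonaute genes described and for 13 other Argonaute genes (columns, with an asterisk on pseudogenes). Each call joins 2 ChIP replicates, and no gene of either block was called in control only.

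**Figure D2:**
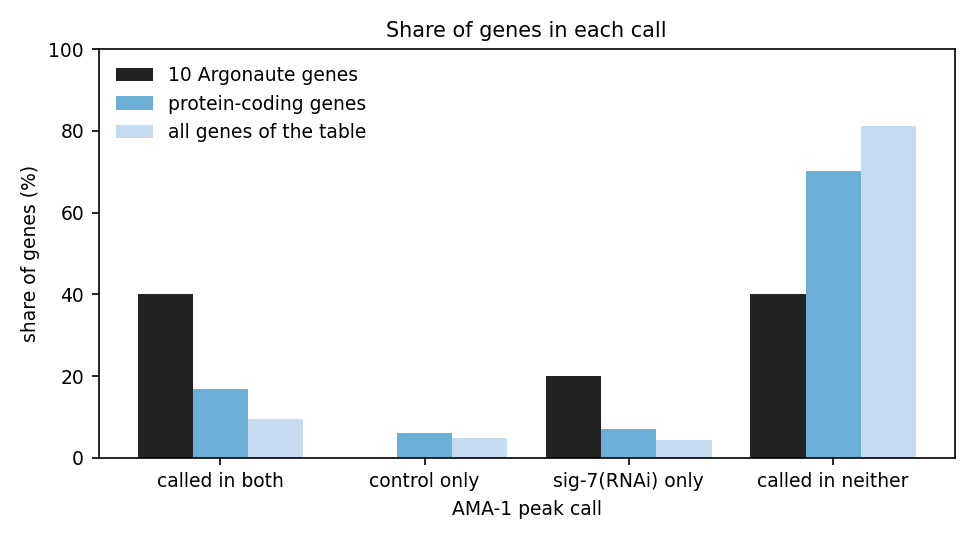
Share of genes (%) in each call for the 10 Argonaute genes, all protein-coding genes and all genes of the gene table. Bars have no error, since each condition has 1 call per gene; 40.0% of the Argonaute genes and 16.8% of protein-coding genes had a call in both conditions.

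The microRNA Argonautes were called in both conditions. ALG-1 and ALG-2 are closely related proteins with overlapping roles in embryonic and larval development. alg-1 had a call of 1 in control and 1 in sig-7(RNAi), and so had alg-2. Reads that fit both genes could have been placed at either, and the sources used here do not state how such reads were treated. The same limit would hold for any other Argonaute genes alike in sequence, and sequences were not compared here. Among protein-coding genes, the call at alg-1 was isolated in sig-7(RNAi), but in control it adjoined a called gene. Of its nearest protein-coding neighbours, elt-3 (K02B9.4), which encodes an epidermal GATA factor, was called in control only, and syx-2 (F48F7.2) in neither. The snoRNA gene K02B9.10, directly before alg-1 among genes of any kind, was not listed. Among the 10 nearest protein-coding genes of alg-1, 5 on either side, 3 were called in control and 0 in sig-7(RNAi), so alg-1 was the only gene of this window called in sig-7(RNAi). Around alg-2, 1 of the 10 nearest was called in control and 2 in sig-7(RNAi). The gene before it, the F-box gene fbxc-51 (Y46B2A.1), was called in both, and T07D3.4 after it in neither. After alg-2, in order of gene starts, the short ncRNA genes T07D3.10 and T07D3.11 were also called in both conditions, while T07D3.12, which lies before them in that order, was not listed.

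The primary Argonautes had unlike calls. ERGO-1 binds primary endogenous siRNAs in oocytes and embryos, and RDE-1 binds siRNAs from introduced double-stranded RNA. ergo-1 had a call of 0 in control and 1 in sig-7(RNAi). Its following neighbour, pei-2 (R09A1.2), had the same call, and its preceding neighbour, Y50D4C.5, had the opposite one, a call in control only. Opposite calls of this kind thus met between Y50D4C.5 and ergo-1. rde-1 was not listed. The 3 protein-coding genes before it, C27H6.8, rmd-2 (C27H6.4) and C27H6.9, were all called in control only. The gene after it, trpp-6 (K08H10.9), was not listed. In the window of rde-1, 3 of the 10 nearest genes were called in control only, 2 in sig-7(RNAi) only and 0 in both.

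Of the nuclear Argonautes, nrde-3 was called in both conditions and hrde-1 in sig-7(RNAi) only. NRDE-3 acts mainly in somatic cells, and HRDE-1 in the germ line, where it is needed to pass silencing on to later generations. nrde-3 shared its call with the following gene, R04A9.3, and the nearest protein-coding gene before it, C04E7.5, was not listed. The piRNA gene directly before nrde-3, 21ur-13047, was not listed either. Of the 10 nearest protein-coding genes of nrde-3, 2 were called in control and 3 in sig-7(RNAi). hrde-1 had a call of 0 in control and 1 in sig-7(RNAi), as had the gene before it, C16C10.4. This pair was flanked by rnf-121 (C16C10.5) and C16C10.13, both called in neither. Further out, rnf-5 (C16C10.7) and ccdc-55 (C16C10.6) were called in both conditions, C16C10.8 in sig-7(RNAi) only and C16C10.1 in control only. The window of hrde-1 thus held calls of every kind, with 2 genes in both, 1 in control only, 2 in sig-7(RNAi) only and 5 in neither.

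The cytoplasmic WAGO genes also had unlike calls. PPW-1 is needed for efficient RNA interference in the germ line, and WAGO-1, a P granule protein, binds secondary siRNAs against transposons, pseudogenes and some protein-coding genes. ppw-1 had a call of 1 in both conditions, as had kel-20 (R12E2.1) before it, while cas-2 (C18E3.6) after it was not listed. Its window was the most densely called of the 10, with 6 of 10 genes called in control and 8 in sig-7(RNAi). wago-1 was not listed, although its window was nearly as densely called, with 6 genes in control and 7 in sig-7(RNAi). It lay in a run of 3 genes called in neither, R06C7.2, wago-1 and dhp-1 (R06C7.3). This run was bounded by genes called in both conditions on either side, namely the kinase gene hasp-1 (C01H6.9) and the chondroitin proteoglycan gene cpg-3 (R06C7.4). The piRNA gene directly before wago-1, 21ur-11100, was not listed either.

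csr-1 and prg-1, which encode Argonautes central to the germ line, were not listed. prg-1 lay within a run of 6 protein-coding genes called in neither condition, from ndub-7 (D2030.4) to D2030.11. The genes that bounded this run, D2030.3 and D2030.8, were called in both conditions, and 5 of the 10 nearest genes of prg-1 were called in both. csr-1 began a run of 6 genes called in neither, directly after the homeobox gene ceh-19 (F20D12.6) and mcm-3AP (F20D12.2), both called in both conditions. The gene after csr-1, the neuropeptide receptor gene frpr-10 (F57H12.4), was not listed. For csr-1, prg-1 and wago-1 the nearest calls were thus of genes called in both conditions, at 1, 3 and 2 genes' distance. No listed name was the sequence name of any of the 4 unlisted genes with an isoform letter added.

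**Figure D3:**
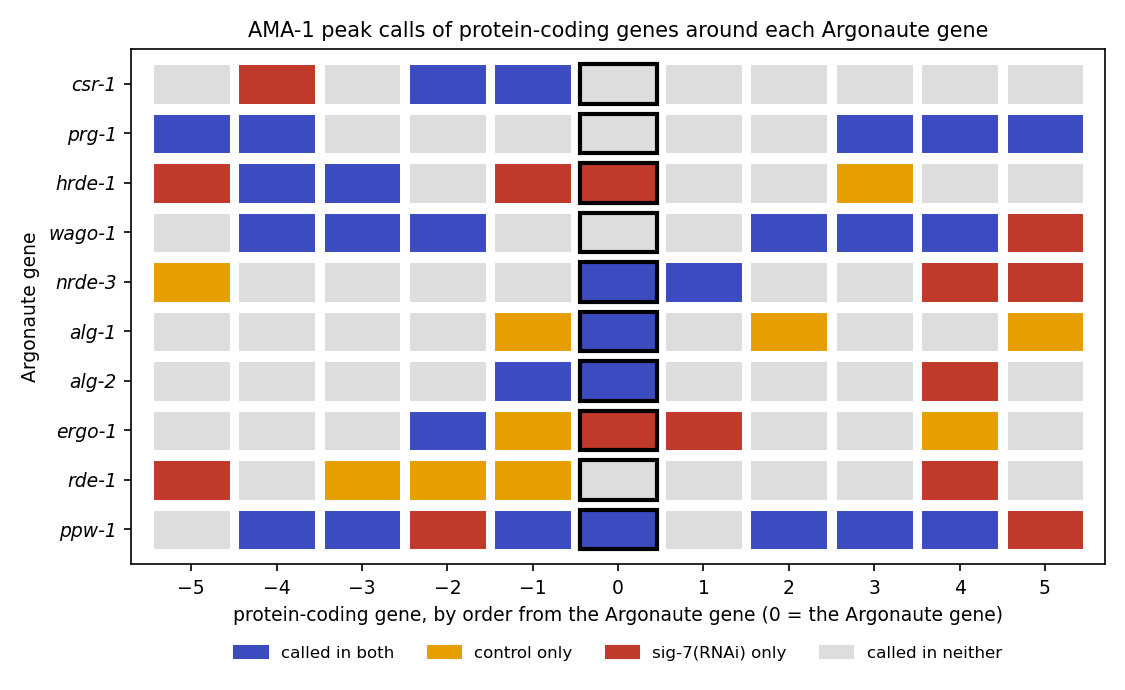
Calls of the 5 protein-coding genes before and the 5 after each Argonaute gene (x axis, position in gene order; the Argonaute gene is at 0 with a black outline), coloured by call. The called Argonaute genes share their colour with at most 1 adjacent protein-coding gene, and alg-1 with none, although elt-3, the one before it, was called in control. prg-1 and wago-1 sit in short unlisted runs between genes called in both conditions.

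A broad peak can call several genes at once, so calls were read beside those of the neighbours. Here the same call means the same values in both conditions. Of the 6 called Argonaute genes, 5 had an adjacent protein-coding gene with the same call, and 0 had it on both sides. The exception, alg-1, still had an adjacent protein-coding gene called in control, elt-3. For protein-coding genes with a call in both conditions, 82.0% had at least 1 adjacent protein-coding gene with the same call, and 27.9% had it on both sides. For genes with a call in sig-7(RNAi) only these shares were 48.9% and 8.16%. Of the 4 unlisted Argonaute genes, 2, prg-1 and wago-1, had unlisted neighbours on both sides, against 71.9% of all unlisted protein-coding genes. The calls of hrde-1 with C16C10.4 and of ergo-1 with pei-2 could each come from a single peak, and without peak positions this was not tested. Over the 10 windows, the median number of called genes was 3 of 10 in either condition, with a range of 1 to 6 for control and 0 to 8 for sig-7(RNAi). The median over all protein-coding genes was 2 in either condition.

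The 10 genes lie on 6 chromosomes in assembly WBcel235, and no pair of them is adjacent. prg-1, wago-1 and ppw-1 are on chromosome I, alg-2 on II, hrde-1 on III, csr-1 on IV, ergo-1 and rde-1 on V, and nrde-3 and alg-1 on X. Both X-linked genes were called in both conditions, beside 16.8% of all protein-coding genes. Of the 3 on chromosome I, ppw-1 alone was called. No share per chromosome was computed, so nothing particular to a chromosome is read from these counts. The proteins PRG-1, CSR-1 and WAGO-1 are found in P granules, the germ granules of the worm, and their genes were all unlisted. Of 8 matched genes for other P granule proteins, 0 were called in control and 1 in sig-7(RNAi), the helicase gene glh-1. Most protein-coding genes, 70.1%, were likewise called in neither condition, and 22.8% were called in control and 23.9% in sig-7(RNAi), so nothing particular to P granule genes is read from these counts.

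Of the 13 other Argonaute genes, 1 was called in both conditions, namely alg-5, which encodes a microRNA Argonaute of the germ line. alg-3 and alg-4, which act in sperm formation, were not listed, nor were vsra-1, ppw-2, wago-4, wago-5, sago-1, sago-2 and wago-10. The gene table marks the other 3, prg-2, wago-2 and wago-11, as pseudogenes. Of these, prg-2 and wago-2 had a call in sig-7(RNAi) only and wago-11 was not listed. Among all 1921 pseudogenes, 4.63% were called in sig-7(RNAi) only and 1.87% in control only. prg-2 resembles prg-1 in sequence, so its call is uncertain; prg-1 itself was not listed. Over all 23 Argonaute genes, 5 were called in both conditions, 4 in sig-7(RNAi) only, 0 in control only and 14 in neither. Over the 20 that are protein-coding, the numbers were 5, 2, 0 and 13, beside 16.8%, 7.05%, 6.03% and 70.1% of protein-coding genes. Of the 10 protein-coding ones outside the list described, 1 was called in both and 9 in neither. These shares were not tested. That 0 genes were called in control only is a count from a list chosen with earlier results known, beside 6.03% of protein-coding genes.

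Genes for the partners of the Argonautes were counted in the same way. Of the 58 matched genes in 7 partner lists, 18 had a call in both conditions, 4 in control only, 7 in sig-7(RNAi) only and 29 in neither. The shares over protein-coding genes, given above, were 16.8%, 6.03%, 7.05% and 70.1%, and neither this set nor any of its lists was tested against them. Every gene of the primary siRNA list, acting before ERGO-1, RDE-1 or both, was called in at least 1 condition, beside 29.9% of protein-coding genes. Of its 8 genes, 5 were called in both, including the exonuclease gene eri-1, its partners eri-3 and eri-5, and the RNA phosphatase gene pir-1. dcr-1, which encodes Dicer, was called in control only. The helicase gene drh-1 and the RNA-dependent RNA polymerase gene rrf-3, which works with ERGO-1, had a call in sig-7(RNAi) only, beside 7.05% of protein-coding genes.

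Of 13 matched genes that make secondary siRNAs for the WAGO proteins and CSR-1, 8 were called in neither condition, a share near the 70.1% of protein-coding genes, and 3 in both, namely mut-15, mut-16 and rde-12. The helicase gene mut-14 was called in control only, and the Tudor domain gene ekl-1, which acts with CSR-1, in sig-7(RNAi) only. In the nuclear list, 3 of 5 genes were called in both conditions, beside 16.8% of protein-coding genes. These were nrde-1, nrde-2 and nrde-4, whose proteins act with NRDE-3 and HRDE-1. This was the call of nrde-3 but not of hrde-1, and no link between these calls was tested. hrde-2 and hrde-4 were not listed. In the list for systemic spread of double-stranded RNA, 1 of 7 genes, rsd-6, was called in both. sid-3 and rsd-2 had a call in sig-7(RNAi) only, beside 7.05% of protein-coding genes.

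The microRNA and piRNA protein lists stand beside the same 16.8% of protein-coding genes with a call in both conditions and 70.1% in neither. Of 6 matched genes that act with ALG-1 and ALG-2, 4 were called in both conditions. These were drsh-1, which encodes the Drosha nuclease, the GW182-like genes ain-1 and ain-2, and nhl-2. The helicase gene cgh-1 was called in control only, and pash-1, the partner of Drosha, was not listed. Of 11 genes that act with PRG-1, 2 were called in both conditions, snpc-4, which encodes a transcription factor of piRNA and small nuclear RNA genes, and tofu-6. henn-1, which encodes the methyltransferase that protects piRNA ends, was called in control only, tost-1 in sig-7(RNAi) only, and the other 7 in neither. The counts of the piRNA list were near the shares over protein-coding genes. No test compared these lists.

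**Figure D4:**
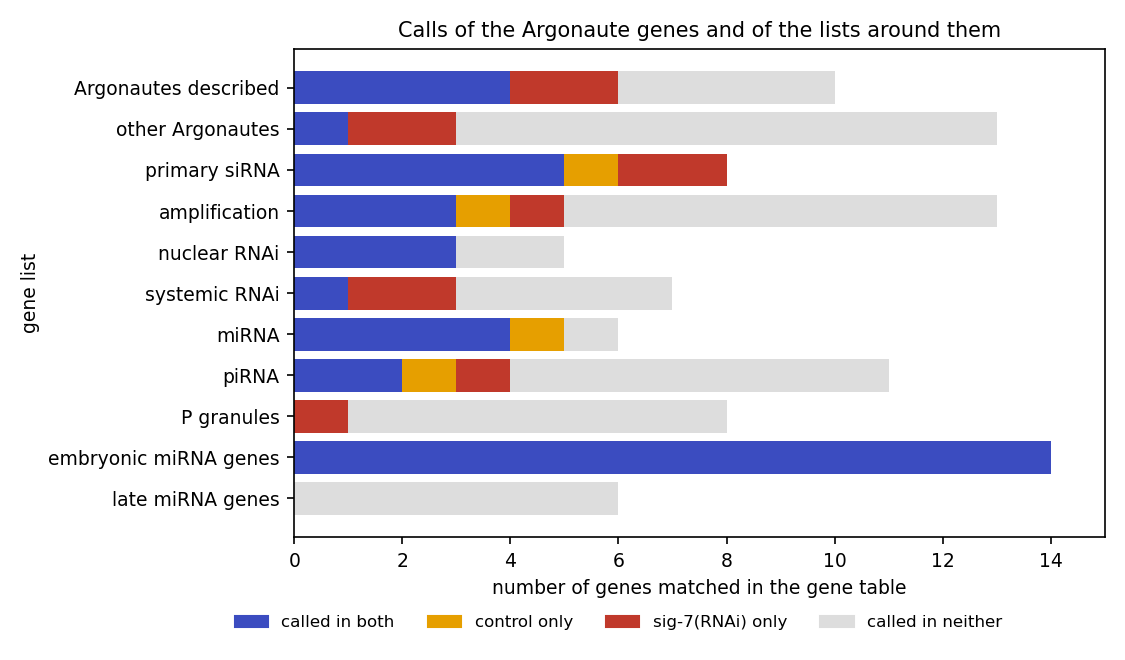
Number of genes (x axis) in each call for the 10 Argonaute genes described, the other Argonautes and the lists of their partners and guides (y axis). Partner lists ran from 8 of 8 primary siRNA genes called in at least 1 condition to 1 of 8 P granule genes, with 5 of 13 amplification and 4 of 11 piRNA list genes nearer to the 29.9% of protein-coding genes, and the 14 embryonic and 6 late microRNA genes stand beside 27.7% of all microRNA genes.

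As a check of the tissue, early zygotic genes were set beside genes of the mother's intestine and of sperm. Of 13 early zygotic genes, nhr-2, pal-1 and vet-2 had a call in both conditions, and ceh-51, med-2 and vet-6 in sig-7(RNAi) only. The other 7 were not listed. Thus 3 of 13 were called in control and 6 of 13 in sig-7(RNAi), beside 22.8% and 23.9% of protein-coding genes. The count in control was near its share, so it does not mark the tissue. The count in sig-7(RNAi) was above its share, which was not tested and is not read as a mark of the tissue. Of 10 vitellogenin and sperm genes, 0 were called in control and 1, vit-1, in sig-7(RNAi), beside the same shares. Neither list was tested.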

How the data were processed

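The authors deposited a call of 0 or 1 per gene and condition, which is neither a count nor a signal. Per the file headers, MACS2 called broad peaks at a cutoff of 0.01, and the gene overlap and replicate rules were those given above. Per the submitters' processing notes, Bowtie 1.0.1 and build ce10 were used. Which gene annotation and MACS2 version served, and whether inputs entered the peak calling, is not given in the sources used here.

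Sequence names were looked up, ignoring case, in the RefSeq gene table of assembly WBcel235 (8824 matched, 98 unmatched). Of 61 partner genes, 3 (mut-2, ntl-1 and zsp-1) were not matched by symbol and were left out. As that is another build, the table gave names, kinds of gene, chromosomes and gene order alone. Neighbours are genes adjacent in order of start. Shares and counts were computed with Python 3.11.15 and pandas 2.3.3. The matching of names and the reading of adjacent calls were tried on simulated calls, drawn independently for each gene. Windows, runs and lists were not tried in this way. Members and lists were chosen with earlier results of these data known. The text names all 10 members, the other Argonautes, adjacent genes, and from each further list the genes called in a single condition and up to 4 called in both. Genes in the windows beyond the adjacent ones, and unlisted partner genes, were named after their calls were seen. The planned comparison of proteins was not made, as no sequences were used here. The design had allowed for counts or signal, which calls do not give.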

Additional observations from a re-analysis of the deposited data

How the results depend on the processing

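The 4 Argonaute genes called in control and the 6 called in sig-7(RNAi) were the same number with names matched in exact case. Leaving out genes flanked on both sides by genes called alike removed no called gene, so it says nothing about stability. With the 13 other Argonaute genes added, the numbers called were 5 and 9, and the number called in a single condition went from 2 to 4, as prg-2 and wago-2, both pseudogenes, joined it. The background also moved: the share of genes called in control was 14.4% over all genes, 22.8% over protein-coding genes and 21.0% once piRNA and ncRNA genes were left out. In sig-7(RNAi) these shares were 13.9%, 23.9% and 22.3%, and for calls in a single condition 9.28%, 13.1% and 12.2%. With neighbours of any kind in place of protein-coding ones, 5 of the 6 called genes again had an adjacent gene with the same call. No paired analysis was possible because each deposited call joins both replicates, and for the same reason leaving out a replicate was not run. The comparison of proteins and its alternative were not run. Depth is unknown, and a 0 may hide a peak in 1 replicate.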

Other observations

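The microRNA genes whose products guide ALG-1 and ALG-2 were also read from the table. All 14 genes of the mir-35 and mir-51 families, whose microRNAs are abundant in embryos, were called in both conditions, among them mir-35, mir-36, mir-37 and mir-38. They form 6 groups when only the order of microRNA genes is read, and 9 when genes of all kinds are counted. These groups rest on gene order alone and are not a count of shared transcripts. The largest of the 6, with 7 genes from mir-35 to mir-41, is known as a cluster made from a shared transcript. The 14 calls are thus not separate measurements. Of 6 microRNA genes known for larval roles or a neuronal fate, let-7, lin-4, mir-48, mir-84, mir-241 and lsy-6, 0 were listed. Over all 260 microRNA genes, 19.6% had a call in both conditions and 72.3% in neither. The lists were not tested against each other.

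Near rde-1 lies a gene of the piRNA list, tofu-1 (C27H6.3), 4 protein-coding genes before it. Both were called in neither condition, and the 3 genes between them were all called in control only. Next to tofu-1 on its other side, ruvb-1 (C27H6.2) was called in sig-7(RNAi) only.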
